A study of Arabidopsis thaliana with 6 samples.

Results

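In seeds of the MADS-box mutant *agl62* at 30 hr after pollination, 86 genes had an authors' mean of at least 30 normalised counts together with a ratio over WT of at least 4, out of 32678 genes listed. The ratio was taken as (*agl62* mean + 1)/(WT mean + 1), and 5 genes that also met both thresholds were set aside by the rule and are not analysed here. The genes were chosen by these 2 means, so their levels and ratios are a description and carry no test. Of the 18267 genes with an *agl62* mean of at least 30, 91 passed the ratio, which is 0.498%, and nothing is read from that share.

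RNA was sequenced from *agl62* seeds and WT seeds, with 3 biological replicates for each genotype and 6 libraries in all. The labels write the mutant as *agl62*/-, the seeds came from homozygous *agl62* plants, which arise at low frequency, per the study's methods, and a table legend of the study writes *agl62*/+ instead. The mutant allele among the plant material is *agl62-2*, and the WT strain of these libraries is not given in the sources used here. Per the methods, flowers of *agl62* plants were emasculated before they opened and then pollinated by hand, and only *agl62* plants are named at this step. Seeds of both genotypes were collected 30 hr after pollination, without separating embryo, endosperm and seed coat.

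A seed at this age holds a young embryo, a nuclear endosperm and the maternal seed coat. AGL62 is a type I MADS-box transcription factor that keeps the endosperm in its nuclear phase, and seeds without it cellularise the endosperm early and abort. In such whole seeds, fewer cells of a type and less RNA per cell cannot be told apart.

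*AGL62* (AT5G60440) had a mean of 1.81 normalised counts in *agl62* and 410 in WT, at least 137-fold lower in *agl62* when set against a floor of 3. The expression levels are available only as averages over the replicates of a genotype, so no spread between replicates can be given. The authors' p-values and adjusted p-values for the genotype comparison were also available but were not used. Relative depths, read from the lowest means, were between 1.058 and 1.302 in *agl62* and between 0.456 and 1.377 in WT, and one WT library was therefore shallow. Intervals given below are exact Clopper-Pearson intervals at 95% that cover counting error only and leave out the spread between replicates. Over all genes with an *agl62* mean of at least 30 the median log2 ratio was 0.01, with the 5th and 95th percentiles at -0.46 and 0.60. The seed coat markers listed were all present, with means summed over 14 genes of 396700 in *agl62* and 416800 in WT. The same sum over 13 endosperm markers was 794.3 in *agl62* and 2183 in WT. *AGL62* itself is one of these markers, so part of the difference is the mutated gene. The markers also differed in direction. Of the 10 that reached 30 normalised counts, 2 had log2 ratios above 0, *AGL28* and *FIS2*, the second with 143 in *agl62* and 83.9 in WT. The less abundant *AGL90* had 9.4 in *agl62* and was listed at 0 in WT.

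The 86 genes were mostly of low abundance in both genotypes. Their median mean was 84.8 normalised counts in *agl62* and 6.625 in WT, and their median log2 ratio was 3.36, between 2.00 and 9.39. Only 6 of them reached 1000 normalised counts in *agl62*, while 30 lay from 100 to 1000 and 50 lay under 100. In WT, 4 were listed at 0, 25 were above 0 and at most 3, 42 were above 3 and under 30, and 15 were at 30 or more. A log2 ratio of at least 3 was reached by 51 genes and one of at least 5 by 20. The means of the 86 genes summed to 32506 in *agl62* and 3236.4 in WT, which was 0.0556% of all normalised counts in *agl62* and 0.00536% in WT. A single gene, *FSD1*, made up 32.6% of the *agl62* sum.

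**Figure D1:**
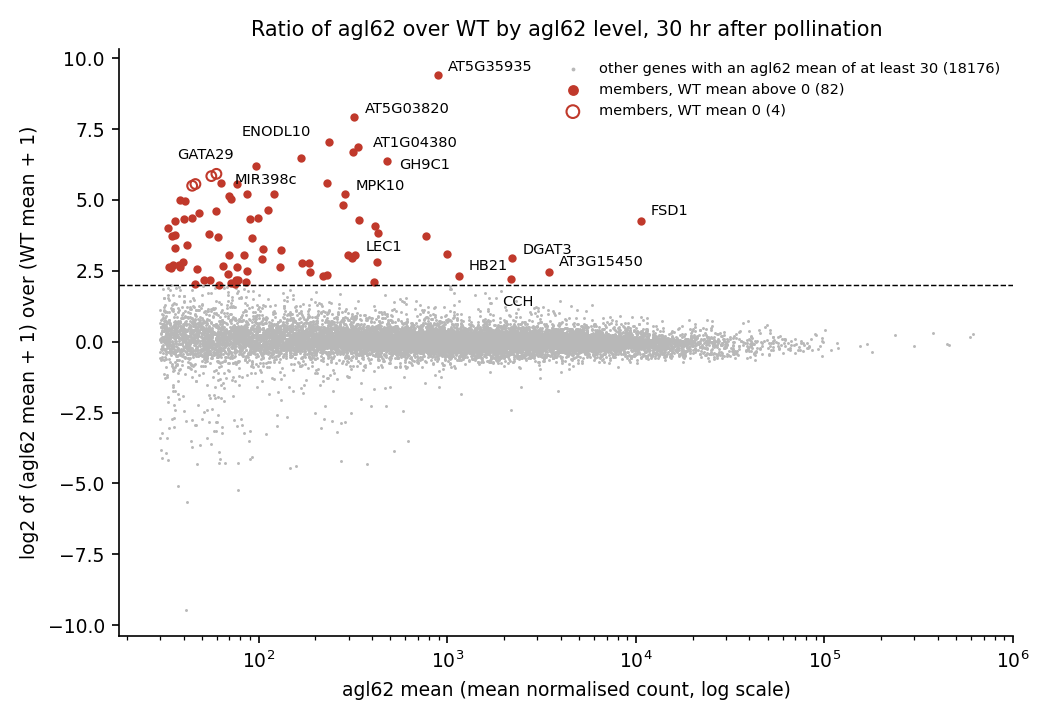
The log2 ratio of *agl62* over WT (vertical axis, pseudocount 1) is plotted against the *agl62* mean normalised count (horizontal log axis) for the 86 member genes in red and for 18176 other genes with an *agl62* mean of at least 30 in grey. The dashed line marks the log2 ratio of 2 that the rule asks for. Open circles are the 4 members listed at 0 in WT, and *FSD1* stands apart at the highest level.

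Copper homeostasis held the most abundant of the 86 genes. Plants short of copper replace the copper-dependent superoxide dismutases by an iron enzyme, through the transcription factor SPL7, which binds a GTAC core, and through microRNAs that target messengers of copper proteins. The 4 members of this class were *FSD1*, *CCH*, *MIR398c* and *MIR408*. *FSD1* (AT4G25100, chromosome 4, 12884300 to 12887011, minus strand of TAIR10.1) encodes that iron superoxide dismutase. Its mean was 10600 in *agl62* and 551 in WT, a ratio of 19.2 with a counting interval from 18.3 to 20.2. *CCH* (AT3G56240), which encodes a copper chaperone, had 2170 normalised counts in *agl62* and 472 in WT. The precursor gene *MIR398c* (AT5G14565) had 86.6 in *agl62* and 1.38 in WT, where the mean was made of 3 to 5 counts, and its ratio of 62.8 had a counting interval from 23.9 to 229. *MIR408* (AT2G47015) had 69.9 in *agl62* and 7.48 in WT. The whole annotated *MIR408* precursor lies opposite AT2G47020, which had 320 in *agl62* and 309 in WT, and whether the counting used strand is not given in the sources used here. The libraries hold long RNA, so these values are of the precursor transcripts and not of the mature microRNAs.

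The mature microRNAs of these precursor genes are shown because their targets are known copper proteins. Each is written with the seed, bases 2 to 8, in capitals, and the sites of best ungapped pairing in *CSD1* and *ARPN* have in capitals the bases opposite the seed. The sequences were read from the RefSeq annotation of TAIR10.1. The mature miR398c-3p lies on chromosome 5 from 4694778 to 4694798 and miR408-3p on chromosome 2 from 19319933 to 19319953, both on the plus strand. The *CSD1* site lies in the 5′ untranslated part of the messenger, across a splice junction, with 4 mismatches and 6 of 7 seed bases paired. The *ARPN* site lies in the coding sequence with 2 mismatches and all 7 seed bases paired. The best sites in the other listed miR398 targets, *CSD2*, *CCS* and *COX5B*, had 5 mismatches each, with 3, 6 and 4 seed bases paired. Those for miR408 in *LAC3*, *LAC12* and *LAC13* had 4, 3 and 3 mismatches, with 6 seed bases paired in each.
miR398c-3p: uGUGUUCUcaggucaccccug
*CSD1* site: aagggguuuccugAGAUCACa
miR408-3p: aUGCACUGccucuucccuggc
*ARPN* site: ccaagggaagaggCAGUGCAu

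Both target genes had lower means in *agl62*. *CSD1*, a copper/zinc superoxide dismutase, had 17900 normalised counts in *agl62* and 29400 in WT, a log2 ratio of -0.72. *ARPN*, which encodes the blue copper protein plantacyanin, had 946 in *agl62* and 1670 in WT, a log2 ratio of -0.82. The other listed targets of miR398 with reads were *CSD2* with a log2 ratio of -0.58, the copper chaperone gene *CCS* with -0.39, and *COX5B*, for a subunit of cytochrome c oxidase, with -0.35, and the miR408 target *LAC13*, for a laccase, had -0.17. All 6 values were below 0, and no test was made. Also listed as targets of miR408, *LAC12* had 0.256 in *agl62* and 1.22 in WT, and *LAC3* was at 0 in both. Among 12744 genes with both means at 500 or more, the median log2 ratio was -0.0, and the 5th and 95th percentiles were -0.40 and 0.37. The values of *CCS* and *COX5B* lay between these percentiles. *SPL7* itself had 4610 in *agl62* and 4240 in WT, a log2 ratio of 0.12.

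A wider list of 35 copper genes, written with the values already known, included 24 with a mean of at least 30. Of these, 4 were at least 4-fold higher in *agl62*, none was as far lower, and the median log2 ratio was 0.17. Over all 18671 genes that reached a mean of 30 in *agl62* or WT, 0.487% were at least 4-fold higher and 1.75% were at most 1/4 of WT. The highest after the members was *YSL2*, a gene for a metal transporter, with 75.5 in *agl62* and 19.7 in WT. *COPT2*, a copper importer gene, had 11.7 in *agl62* and 11.2 in WT. The precursor genes *MIR398a*, *MIR398b*, *MIR397a*, *MIR397b* and *MIR857* were listed at 0 in both genotypes. The mature miR398b-3p has the same sequence as miR398c-3p.

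**Figure D2:**
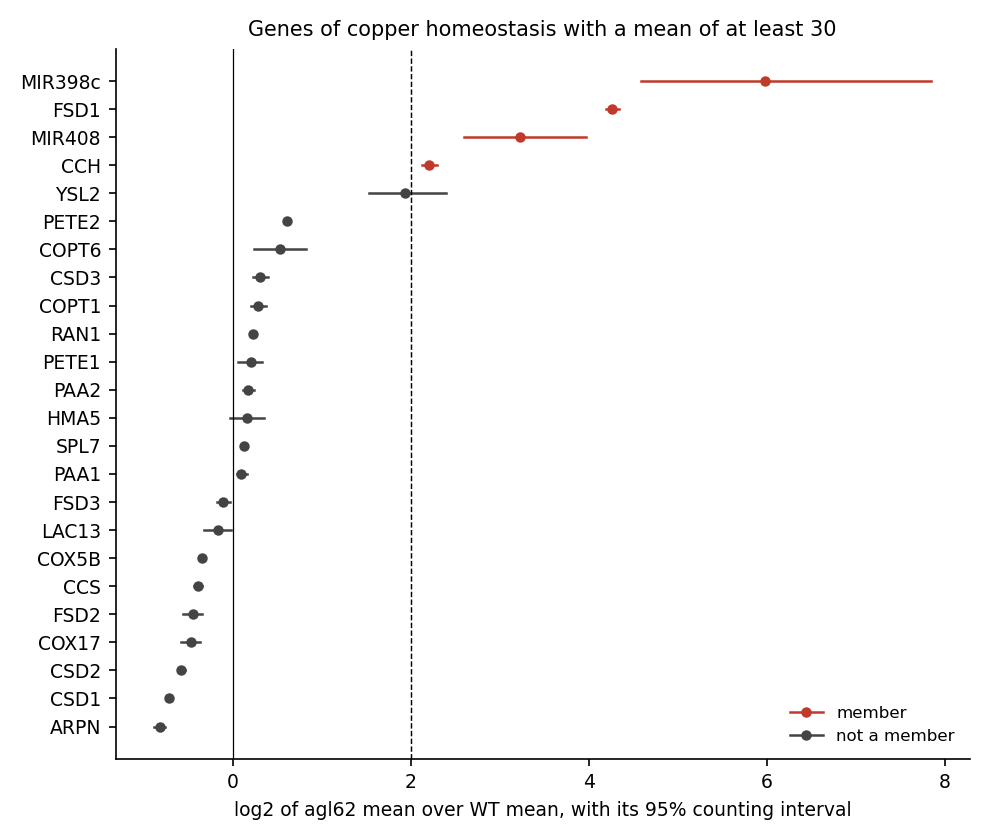
Each of the 24 copper genes with a mean of at least 30 is drawn at the log2 of its *agl62* mean over its WT mean, without pseudocount, with a line for the 95% counting interval. Red marks the members *MIR398c*, *FSD1*, *MIR408* and *CCH*, which lie to the right of the dashed line at a log2 of 2, and the targets *CSD1* and *ARPN* lie lowest.

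The promoters of the precursor genes are shown because GTAC is the core that SPL7 binds, a motif added to the search with the values known. Each window runs from 250 bases before the annotated start to 50 bases after it, with GTAC in capitals. It lies at chromosome 5, 4694444 to 4694743, plus strand, for *MIR398c* and at chromosome 2, 19319564 to 19319863, plus strand, for *MIR408*. The motif reads the same on both strands. It begins 225, 164 and 137 bases before the annotated start of *MIR398c* and 159, 134, 104 and 88 bases before that of *MIR408*. For both genes this start is the first base of the annotated precursor, and where transcription starts was not examined. The last 50 bases of each window are therefore precursor sequence, and those of *MIR398c* hold the mature miR398c-5p.
*MIR398c* promoter: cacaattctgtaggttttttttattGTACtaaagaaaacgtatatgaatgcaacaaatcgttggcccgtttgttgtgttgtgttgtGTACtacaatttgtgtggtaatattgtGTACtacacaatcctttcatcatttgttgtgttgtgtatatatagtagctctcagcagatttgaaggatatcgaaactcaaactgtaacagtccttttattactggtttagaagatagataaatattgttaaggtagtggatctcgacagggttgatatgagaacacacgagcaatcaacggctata
*MIR408* promoter: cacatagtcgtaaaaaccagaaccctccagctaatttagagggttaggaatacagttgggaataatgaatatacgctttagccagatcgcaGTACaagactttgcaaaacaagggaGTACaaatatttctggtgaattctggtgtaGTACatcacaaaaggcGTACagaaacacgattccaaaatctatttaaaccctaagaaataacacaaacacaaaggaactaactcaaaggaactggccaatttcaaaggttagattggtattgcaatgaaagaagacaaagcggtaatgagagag

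The windows of *CCH* and *FSD1* held 4 and 1 such motifs. Only 1 of those of *CCH* begins before the annotated start, by 18 bases, and the others begin at bases 5, 32 and 38 after it. That of *FSD1* begins 145 bases before the start. At least 3 were found in 3 of 86 members, *CCH*, *MIR398c* and *MIR408*, or 3.49%, beside 1.92% of 18163 other genes with an *agl62* mean of at least 30. For at least 2 GTAC the shares were 11.6% of members and 9.67% of the others, and for at least 1 they were 40.7% and 39.1%. Among the other motifs searched on both strands, TGTCTC, the core of auxin response elements, stood in 18.6% of member windows and 13.6% of the others, CACGTG, a G-box, in 12.8% and 8.87%, TTGACC, a W-box core, in 12.8% and 14.3%, and the CArG box of MADS-domain proteins in 4.65% and 3.4%. These matches are a description of the windows and were not tested as sites.

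The genes grouped here as dormancy and dehydration, with their values known, summed to 4298 normalised counts in *agl62* and 801.9 in WT over 6 genes. Without AT3G15450, the most abundant of them, the other 5 summed to 838.2 in *agl62* and 170.9 in WT. Not all of the annotations name dormancy or dehydration, and those of AT3G15450 and AT3G11930 do not. The log2 ratios of the 6 genes were between 2.09 and 2.93. AT3G15450, annotated as an aluminium-induced protein, had 3460 in *agl62* and 631 in WT, the second highest level of all members. AT2G33830, of the dormancy/auxin-associated family, had 409 in *agl62* and 94.5 in WT. AT3G11930, of the adenine nucleotide alpha hydrolase-like family, had 188 in *agl62* and 33.6 in WT. The late embryogenesis abundant genes *LEA4-5* and *LEA7*, whose hydrophilic proteins accumulate in drying seeds, had 104 and 85.7 in *agl62*, against 12.8 and 19.4 in WT. *KIN1*, a cold- and dehydration-induced gene, had 51.5 in *agl62* and 10.6 in WT. Its neighbour AT5G15970, no member, had 1050 in *agl62* and 286 in WT, a log2 ratio of 1.87. On the list of abscisic acid and dehydration response, 9 of the 10 genes that reached a mean of 30 were above 0, with a median log2 ratio of 1.34, and *KIN1* alone of them was a member.

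The class of transcription regulators had 10 members with a median *agl62* mean of 83.0. *HB21*, for a homeodomain-leucine zipper factor known from dormant axillary buds, had 1150 in *agl62* and 230 in WT. *LEC1*, for a NF-Y subunit that directs embryo development and seed maturation, had 325 in *agl62* and 38.0 in WT, a ratio of 8.55 with a counting interval from 6.99 to 10.5. *LBD20*, of the LOB domain family, had 170 in *agl62* and 24.0 in WT. *RL6*, of the RADIALIS-like family, had 112 in *agl62* and 3.5 in WT. *GATA29* had 97.1 in *agl62* and 0.326 in WT, a mean made of 1 count, so its ratio of 298 had a counting interval from 49.4 to 11000. The others were *NAC3*, *ULT2*, *LBD42*, *SOB3* and *AGL28*. *AGL28*, a type I MADS-box gene like *AGL62*, had 46.0 in *agl62* and 10.5 in WT, whereas the median log2 ratio of the 10 listed endosperm genes with a mean of at least 30 was -1.56 and 4 of them, *AGL62* included, were at most 1/4 of WT.

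*LEC1* stood among embryo genes that were mostly nearer to WT. Of 12 listed embryo genes, 4 had a mean of at least 30, with log2 ratios of 3.06 for *LEC1*, 1.24 for *LEC2*, 0.32 for *BBM* and 0.27 for *WOX8*. Means over the list summed to 546.2 in *agl62* and 199.3 in WT, and to 221.2 in *agl62* and 161.3 in WT without *LEC1*. *ABI3* was listed at 0 in both. None of 17 seed storage and maturation genes had a mean of at least 30, 7 were listed at 0 in both genotypes, and the list summed to 51.04 in *agl62* and 6.816 in WT.

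Genes of the cell wall and cell surface were 10 members, with the second highest median log2 ratio of the 12 classes, 4.62. *GH9C1*, for an endoglucanase with a carbohydrate-binding module, had 477 in *agl62* and 4.70 in WT, a ratio of 101 with a counting interval from 61.1 to 197. *RGP3*, of the family that interconverts forms of UDP-arabinose, had 432 in *agl62* and 29.3 in WT. *ENODL3* and *ENODL10*, for early nodulin-like proteins anchored at the cell surface, had 416 and 235 in *agl62*, against 23.5 and 0.810 in WT. The WT mean of *ENODL10* was made of 3 counts, and its ratio of 290 had a counting interval from 76.3 to 1090. *PGSIP3*, for a xylan glucuronosyltransferase, had 219 in *agl62* and 43.2 in WT. *DUR*, for a protein related to UDP-sugar epimerases, had 69.2 in *agl62* and 0.974 in WT, with 2 counts behind the WT mean and a counting interval of the ratio from 27.1 to 822. AT3G12880, of the pectin methylesterase inhibitor family, had 59.7 in *agl62* and was listed at 0 in WT, at least 19.9-fold higher against a floor of 3.

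The X8 domain, which binds the wall glucan callose in related proteins, was found in 3 of these members. AT5G63240 had 186 in *agl62* and 26.4 in WT, its direct neighbour AT5G63250 had 34.7 in *agl62* and 1.70 in WT, and AT1G78520 had 76.5 in *agl62* and 0.651 in WT, a mean of 2 counts with a counting interval of the ratio from 29.9 to 906. Across all 16 X8 domain genes with an *agl62* mean of at least 30, the members were 18.8%, and the others had a median log2 ratio of -0.02, between -2.77 and 1.47. The early nodulin-like family had 2 members of 17 and the LOB domain family 2 of 8. The other genes of these 2 families had median log2 ratios of -0.08 and 0.25. Further families counted had lower shares of members, such as 2.44% for NAC domain genes and 3.7% for MATE efflux genes. Over all genes at that level, 0.498% passed the ratio. The families were picked with the values known, so nothing is read from these shares.

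Lipid genes were 8 members. *DGAT3*, for a soluble diacylglycerol acyltransferase, had 2210 in *agl62* and 286 in WT, the third highest level. The GDSL lipase genes AT5G03820 and AT1G71250 had 321 and 317 in *agl62*, against 0.326 and 2.11 in WT. The WT mean of AT5G03820 was a single count, and its ratio of 985 had a counting interval from 164 to 36200, while that of AT1G71250, with 4 to 8 counts, was 150 with an interval from 69.1 to 412. They were 2 of 50 GDSL genes with an *agl62* mean of at least 30, or 4.0%, while 0.498% of all genes at that level passed the ratio. This family was also picked with the values known, so nothing is read from these shares. The other GDSL genes had a median log2 ratio of 0.03. AT5G38170, of the lipid-transfer protein family, had 299 in *agl62* and 35.2 in WT, and it lies between AT5G38160 and AT5G38180, both set aside by the rule. AT3G22142, also of that family, had 62.8 in *agl62* and 0.326 in WT, a single count, with a counting interval of its ratio of 193 from 31.8 to 7110. Nearly all of its exon length, 99.3%, lies opposite the gene AT3G22125. The remaining lipid genes, AT4G19645, AT4G23670 and AT4G15755, had *agl62* means of 86.8, 61.8 and 38.1 and WT means of 14.4, 14.7 and 5.37.

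Metabolic enzymes were 10 members. AT1G04380, of the 2-oxoglutarate and Fe(II)-dependent oxygenases, had 337 in *agl62* and 1.94 in WT, a mean of 4 to 8 counts, and a ratio of 174 with a counting interval from 73.4 to 438. AT3G47190 of the same superfamily had 44.4 in *agl62* and was listed at 0 in WT, at least 14.8-fold higher against a floor of 3. AT1G09500, of the NAD(P)-binding Rossmann-fold superfamily, had 229 in *agl62* and 3.73 in WT. The glycosyltransferase gene AT4G19460 had 83.9 in *agl62* and 9.16 in WT, and *GSTU18*, for a glutathione transferase, had 76.5 in *agl62* and 11.5 in WT. *NdhN*, for a subunit of the chloroplast NADH dehydrogenase-like complex, had 75.3 in *agl62* and 17.5 in WT. The 18 photosynthesis genes taken as markers of green tissue all had log2 ratios above 0, with a median of 0.43, and summed to 142400 in *agl62* and 102100 in WT. Whether green tissue has a part in the ratio of *NdhN* was not tested. The remaining enzymes were *PCK2* for gluconeogenesis, *CYP79C1*, *GDH3* for glutamate dehydrogenase and *ESP*, which acts in glucosinolate breakdown.

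**Figure D3:**
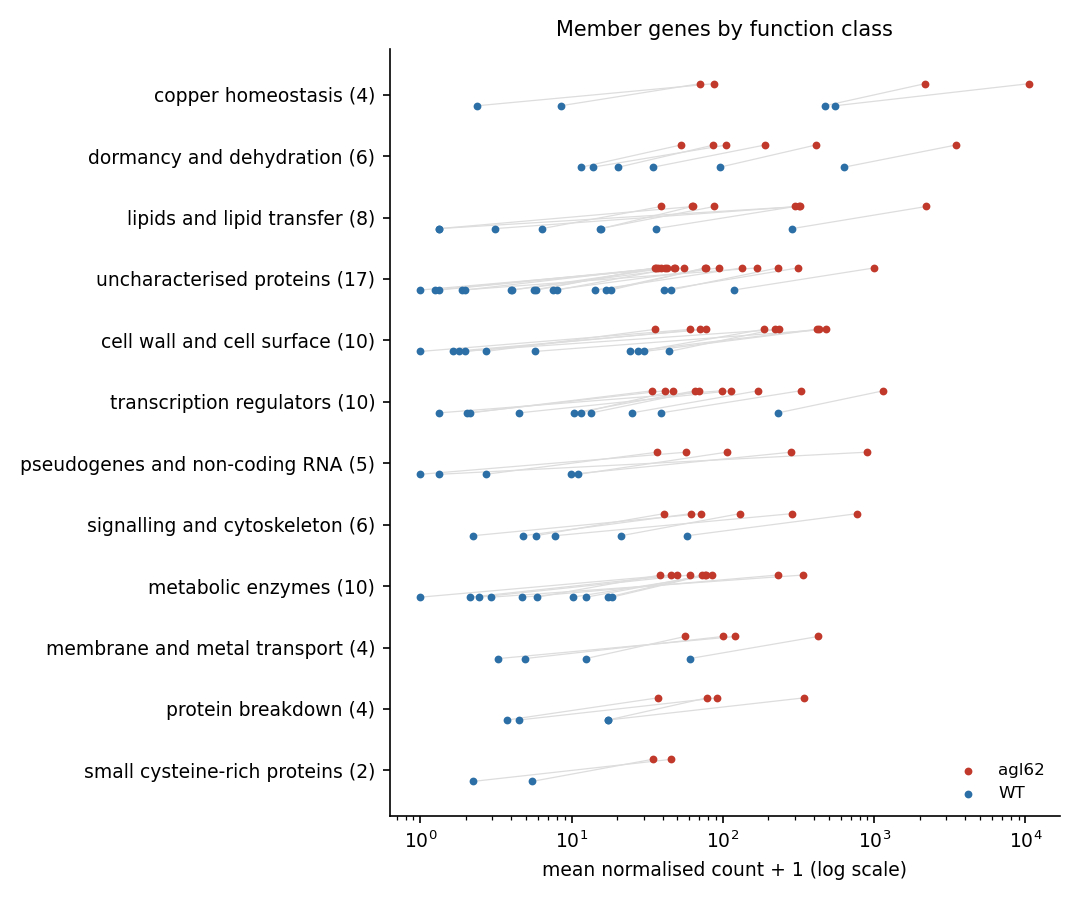
The *agl62* mean (red, upper points) and the WT mean (blue, lower points) of each member gene are drawn per function class as mean normalised count + 1 on a log axis, joined by a grey line for each gene. Copper homeostasis reached the highest levels, with 10600 for *FSD1* in *agl62*, while the WT points of all classes lie to the left of 1000.

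Transport genes among the members included carriers of sugars and amino acids. *SAG29*, also known as *SWEET15*, for a sucrose transporter that feeds the embryo, had 425 in *agl62* and 59.3 in WT. *UMAMIT25*, of a family of amino acid exporters, had 120 in *agl62* and 2.28 in WT, a mean of 5 to 8 counts, with a counting interval of its ratio of 52.6 from 23.6 to 123. The MATE efflux gene AT1G15150 had 99 in *agl62* and 3.89 in WT, and AT4G08570, of the heavy metal transport and detoxification superfamily, had 55.3 in *agl62* and 11.4 in WT.

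Signalling and cytoskeleton genes were 6 members. *ANN6*, for a calcium-dependent membrane-binding annexin, had 772 in *agl62* and 57.0 in WT. *MPK10*, for a MAP kinase, had 286 in *agl62* and 6.74 in WT, a ratio of 42.4 with a counting interval from 27.4 to 71.7. The formin gene AT1G42980 had 129 in *agl62* and 20.2 in WT, and AT2G16960, of the ARM repeat superfamily, had 71.0 in *agl62* and 1.22 in WT. *RK3* for a receptor kinase and the remorin gene AT2G41870 completed the class.

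Protein breakdown had 4 members. AT4G04460, listed as *PASPA3*, encodes an aspartyl protease used as a marker of developmental cell death, and it had 341 in *agl62* and 16.4 in WT, a ratio of 20.8 with a counting interval from 15.5 to 28.3. The other 4 listed genes of developmental cell death with a mean of at least 30 had log2 ratios between -1.08 and 0.08. The subtilase gene *SBTI1.1* had 89.9 in *agl62* and 3.48 in WT, the ubiquitin ligase gene *ARI16* had 77.3 in *agl62* and 16.4 in WT, and AT4G10150, for a RING protein, had 36.0 in *agl62* and 2.76 in WT. The small cysteine-rich class held the defensin gene *PDF2.1*, with 44.5 in *agl62* and 1.22 in WT, and AT4G13263 of the ECA1 gametogenesis family, with 33.3 in *agl62* and 4.46 in WT.

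The largest ratio of all belonged to a pseudogene. AT5G35935 (chromosome 5, 14083388 to 14089891, minus strand) had 891 in *agl62* and 0.326 in WT, which is 1 count, and its ratio of 2730 had a counting interval from 456 to 101000. It is annotated as a single stretch of 6504 bases and lay at 137 normalised counts per kb of exon in *agl62*, the 30th highest of the 86. The non-coding RNA gene AT4G04223 had 281 in *agl62* and 8.92 in WT, and the pseudogene AT3G29120 had 105 in *agl62* and 10.1 in WT. The pseudogene AT1G34250 had 56.1 in *agl62* and was listed at 0 in WT, at least 18.7-fold higher against a floor of 3, and AT2G14230 had 35.9 in *agl62* and 1.70 in WT. Exact copies of 100-base stretches of their exons stood elsewhere in the genome for 7 members in all, and for AT3G29120 and AT4G04223 they made up 50.6% and 36.9% of such stretches. The authors kept only uniquely mapping reads.

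The uncharacterised class was the largest, with 17 members that had a median *agl62* mean of 54.6. AT3G56360 had 1000 in *agl62* and 117 in WT, AT2G24550 had 313 in *agl62* and 39.6 in WT, and AT5G50360 had 230 in *agl62* and 44.1 in WT. AT5G25950 had 168 in *agl62* and 0.894 in WT, a mean of 3 counts with a counting interval of its ratio of 188 from 54.5 to 778. AT1G19460, of the kelch repeat superfamily, had 46.2 in *agl62* and was listed at 0 in WT, at least 15.4-fold higher against a floor of 3. The neighbours AT1G47395 and AT1G47400 had 38.2 and 40.6 in *agl62*, against 0.242 and 0.326 in WT, each made of 1 count. The coding lengths of this pair were 153 bases each, and the counting intervals of their ratios were 19.3 to 4340 and 20.4 to 4600. Also in this class were AT5G05250, AT2G25625, AT3G52480, AT4G25070, AT5G12460, AT4G31330, AT3G07350, AT2G14247, AT2G32275 and AT3G19030, with *agl62* means between 34.4 and 132.

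Divided by exon length, the 5 highest members in *agl62* stood in the same order. *FSD1* had 6830 normalised counts per kb of exon in *agl62*, AT3G15450 had 3290, *DGAT3* 1830, *CCH* 1650 and *HB21* 1090. *MIR398c* came next with 753 per kb, over an annotated precursor of only 115 bases. The median exon length was 1264 bases for the 86 genes and 1813 bases for the 18163 others with an *agl62* mean of at least 30.

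The 86 genes were spread over the genome, with 23, 12, 17, 15 and 19 members on chromosomes 1 to 5. The pairs AT1G47395 with AT1G47400 and AT5G63240 with AT5G63250 were the only members with at most 1 gene between them. The genes set aside by the rule, of which AT5G38160 and AT5G38180 flank AT5G38170, were left out of the next count although both met the thresholds. There were 88 other directly flanking genes that were no members and had a mean of at least 30. By the rule none of them could have a log2 ratio of at least 2, since it would then be a member. Of the 88, 2 had a log2 ratio of at least 1, and the median was 0.01. Those 2 were AT5G15970 beside *KIN1* and AT5G14570 beside *MIR398c*, the second with 54.0 in *agl62* and 15.7 in WT. For 7 members, another gene on the opposite strand covered at least 20% of the exon length. Beside *MIR408* and AT3G22142 these were *ANN6*, *RGP3*, *SBTI1.1*, *LBD42* and AT2G14247. The gene opposite *LBD42*, AT1G68520, had 29.4 in *agl62* and 8.28 in WT, while *LBD42* had 40.2 in *agl62* and 1.05 in WT.

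Jasmonate and wound response, salicylic acid and defence response, heat shock response, senescence and carbon starvation, auxin response, pollen and seed coat held no member among 64 genes that reached a mean of 30. With 0.487% over all genes, a count of 0 says nothing particular about these lists. Median log2 ratios over their genes that reached a mean of 30 were 0.44 for jasmonate, 0.37 for salicylic acid, 0.62 for heat shock, 0.45 for senescence, -0.25 for auxin, -0.01 for pollen and -0.07 for seed coat, beside 0.01 over all genes with an *agl62* mean of at least 30. On the auxin list *GH3.3* and *GH3.4*, for enzymes that conjugate auxin, had 309 and 20.4 in *agl62*, against 1770 and 100 in WT. Other listed genes of that family differed in direction. *GH3.2* had 610 in *agl62* and 1120 in WT, *GH3.6* had 821 and 855, and *GH3.5* was higher in *agl62*, with 1180 against 592.

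**Figure D4:**
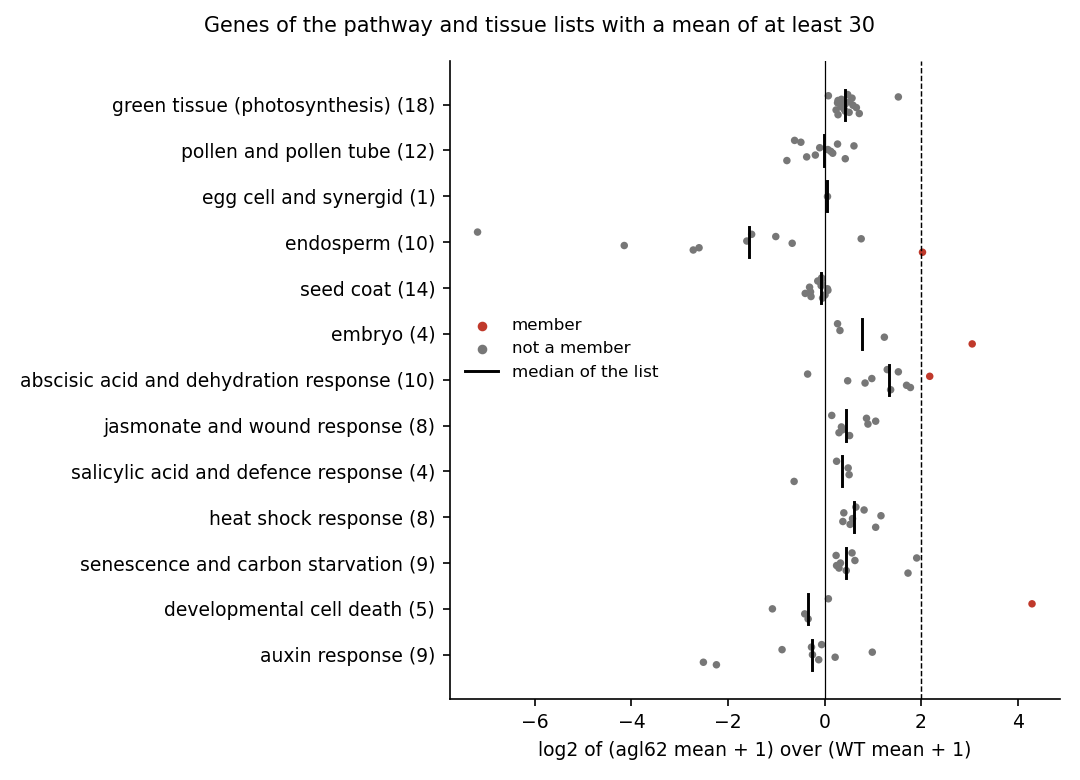
Each point is a listed gene that reached a mean of 30 in *agl62* or WT, placed at its log2 ratio of *agl62* over WT with pseudocount 1, and the black bar is the median of its list. Red marks the 4 members *AGL28*, *LEC1*, *KIN1* and *PASPA3*, which lie to the right of the dashed line at 2.

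Near the thresholds the values ran on without a gap. Just inside the ratio, AT4G23670 of the lipid class had 61.8 in *agl62* and 14.7 in WT, *AGL28* had a log2 ratio of 2.03, and *NdhN*, *PCK2* and *LEA7* had 2.04, 2.06 and 2.09. Just outside, AT5G38710 had 48.4 in *agl62* and 11.4 in WT, AT4G17370 had a log2 ratio of 1.99, the linker histone gene *HIS1-3* had 1030 in *agl62* and 260 in WT, and *MYB3R2* and AT2G39980 had log2 ratios of 1.95 and 1.93. The members of lowest level were *SOB3* with 33.2 in *agl62* and 1.14 in WT, AT4G13263, AT3G19030 with 34.4 in *agl62*, AT5G63250 and AT2G32275 with 35.3 in *agl62*. Just under the level of 30 were AT1G71140 with 29.9, *SPS3F* with 29.3, AT5G42830 with 29.1 and AT3G30833 and *WCRKC1* with 28.9 each in *agl62*. About 116 counts over the *agl62* libraries stood behind the least abundant member.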

How the data were processed

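The authors aligned paired end reads of 100 bp with TopHat against the TAIR10 genome, discarded reads that did not map uniquely and used DESeq for the genotype comparison. The deposited signal values are mean normalised counts of each genotype, that is, counts scaled by DESeq size factors and averaged by the authors, rounded to 3 significant digits. The counting tool, annotation, strand setting and versions are not given in the sources used here. The table's further columns hold the authors' fold change, log2 fold change, p-value and adjusted p-value, and were not used.

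Log2 ratios were computed from the 2 means with a pseudocount of 1, and ratios given as folds without one. A mean of 0 was set against a floor of 3 mean normalised counts. What 1 count adds in each library was read from the means under 1, which gave relative depths, the counts behind low means and approximate counts elsewhere, and from these the counting intervals. The depths and the thresholds were checked on simulated data. That check does not show that the intervals hold the spread between replicates, since they cover counting error only. With no values of single libraries, no model was fitted.

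Identifiers were matched to RefSeq's annotation of TAIR10.1, 31912 of 32678 and all 86 members. Coordinates, exon lengths and sequences are of that build. The members, the function classes and the gene lists were chosen with earlier results of these data known. Values were given for the 4 genes of highest *agl62* mean per class, the 10 largest ratios, members in runs of neighbours or in a list, and the 5 rows nearest each threshold, other genes being named after their values were seen. Alternatives were other pseudocounts, scalings, levels and ratios. Python 3.11.15, numpy 2.4.6, pandas 2.3.3, scipy 1.17.1 and matplotlib 3.10.9 were used.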

Additional observations from a re-analysis of the deposited data

How the results depend on the processing

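The count of 86 genes was 88 with a pseudocount of 0.5, 61 with a pseudocount of 10, 93 with both columns scaled to equal totals and 85 with the median ratio set to 1. It moved to 186 with a minimum *agl62* mean of 10, to 36 with a minimum of 100 and to 51 with a ratio of at least 8. The median log2 ratio of 3.36 was 3.54, 3.4 and 3.35 with a pseudocount of 0.5, equal totals and the median ratio set to 1, and 2.37 with a pseudocount of 10, which weighs most on genes with a low WT mean. With a pseudocount of 10, 61 of the 86 genes kept a log2 ratio of at least 2. No paired analysis was possible because only 1 averaged value per genotype and gene could be used. For the same reason the replicate block and leaving out each replicate were not run, so whether a single library decides a ratio was not tested. Where the WT mean rests on 8 counts or fewer, depth limits the size of the ratio.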

Other observations

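Of the listed embryo and seed storage genes, some below the level of 30 in both genotypes had ratios as large as those of the members, and they are named here after their values were seen. *FUS3*, for a regulator of seed maturation, had 12.4 normalised counts in *agl62* and 0.242 in WT, a mean of 1 count, with a counting interval of its ratio of 51.2 from 5.96 to 1420. The oleosin gene *OLEO3* had 22.7 in *agl62* and 0.894 in WT, a mean of 3 counts, with a counting interval of its ratio of 25.4 from 7.17 to 108. The seed storage albumin gene *SESA1* had 18.5 in *agl62* and 0.568 in WT, a mean of 2 counts, with a counting interval of its ratio of 32.6 from 7.04 to 223. In the same list of seed storage and maturation genes, *OLEO4* had 0.861 in *agl62* and 3.17 in WT, the opposite direction, at about 3 and 9 counts.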
